A study of Mus musculus with 18 samples.

Results

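Reserve long-term haematopoietic stem cells (LT-HSC) of DERARE knockout mice were compared with LT-HSC titled as the knockout control, 3 KO Reserve libraries against 3 KO Ctrl libraries out of 18 in the series. The libraries were chosen by their titles alone. All 18 were made from LT-HSC of mouse bone marrow, for which the series gives 1 gate, negative for lineage markers, CD34 and Flk2, positive for Sca-1 and c-Kit, and low for CD49b. The KO Reserve group is titled as reserve cells of the knockout, while its genotype field also carries the words wild type, and the KO Ctrl group is titled as the knockout control, with a genotype field that names both knockout and wild type. Both groups were therefore placed by title. The corresponding wild-type groups, 3 WT Reserve and 3 WT libraries, were used where the knockout was set against the wild type. The remaining libraries of the series are titled Wnt5a and KO Wnt5a. They were part of the fit that gave the spread behind the p-values, but of no comparison. The labels give no age, sex, Cre driver, number of cells or number of animals, and they do not say how reserve and control cells were gated apart or whether replicates came from separate animals. The p-values below therefore measure the spread between libraries, which may be technical. The column names of both reserve groups carry derarefl, while those of KO Ctrl carry derareko and those of WT derarewt, and the labels do not say whether this marks another allele. Reserve state, such an allele and a possible batch cannot be told apart.

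LT-HSC are the rare marrow cells that can rebuild all blood lineages for a lifetime. Most of them are quiescent, and some carry platelet gene transcripts before they commit to any lineage. CD49b, the integrin alpha 2 chain, is used to divide LT-HSC into subsets. DERARE is a distal element of the Hoxb cluster that binds retinoic acid receptors.

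Expression was read as FPKM, fragments scaled by transcript length and by the mapped fragments of the library, and differences were taken on the log2(FPKM + 1) scale, which understates the change of weakly expressed genes. A gene was tested where it reached 1 FPKM in at least 3 of the 6 knockout libraries, which held for 12713 genes. A gene below 1 FPKM in every library of 1 group was thus tested only where every library of the other group reached that level. For such genes the filter fixed the direction and the lack of overlap, in every list below, and their calls do not support a direction. A call means that the p of limma, after Benjamini-Hochberg adjustment, was below 0.05. The values imply a depth of 21300000 to 30400000 fragments in the KO Reserve libraries and 23000000 to 42700000 in the KO Ctrl libraries. At that depth 3 fragments amount to 0.0703 to 0.141 FPKM for a 1 kb transcript, counting error only. Pearson correlations on the log2 scale were 0.958 to 0.970 among KO Reserve libraries, 0.961 to 0.968 among KO Ctrl libraries and 0.785 to 0.814 between them. KO Reserve replicate 1 and KO Ctrl replicate 1 had the lowest depth of their groups. They also had the lowest share of summed FPKM on the mitochondrial transfer RNA gene mt-Ts1, with 32.0% in KO Reserve replicate 1 and 65.9% and 71.3% in the other KO Reserve libraries, and with 33.4% in KO Ctrl replicate 1 and 56.2% and 53.8% in the other KO Ctrl libraries.

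Of the 12713 genes 8846 (69.6%) were called, 3323 (26.1%) higher and 5523 (43.4%) lower in KO Reserve than in KO Ctrl. These shares are the background against which each gene list below is read. The median difference over all tested genes was -0.23. Scaling decided the split between directions: quantile normalization moved that median to 0.02 and gave 4355 genes higher and 4366 lower (34.3% each). Without KO Reserve replicate 1 and KO Ctrl replicate 1 there were 8416 calls. The libraries of the 2 groups did not overlap, with KO Reserve higher, for 3451 genes (27.1%) and, with KO Reserve lower, for 5544 genes (43.6%).

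**Figure D1:**
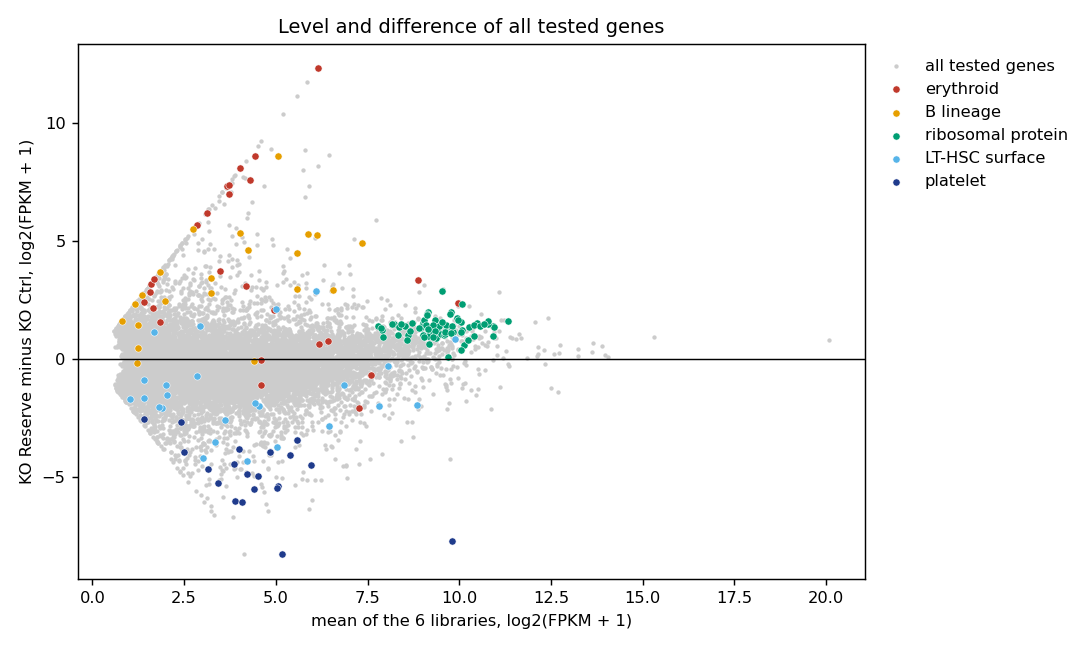
Difference between KO Reserve and KO Ctrl (vertical axis, log2(FPKM + 1)) against the mean level of the 6 libraries (horizontal axis, log2(FPKM + 1)) for the 12713 tested genes, 1 point per gene, with members of 5 gene lists in colour. Erythroid and B lineage genes reach far above 0, platelet genes lie below 0 throughout, and ribosomal protein genes form a compact group near a difference of 1.

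The platelet genes fell together. Of 23 listed megakaryocyte and platelet genes 20 were tested, and all 20 were called lower (100% against a background of 43.4%), with a median difference of -4.79. The expression of the 23 genes summed to 108.9 to 160.8 FPKM in the KO Reserve libraries and to 12610 to 21510 FPKM in the KO Ctrl libraries. Since bulk RNA was measured, fewer cells of a type and less RNA per cell cannot be told apart, here and for every group below.

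Pf4 (ENSMUSG00000029373, chromosome 5, 90772435 to 90773383, GRCm38), the platelet factor 4 chemokine stored in alpha granules, had 68.5, 40.0 and 84.0 FPKM in KO Reserve libraries against 17640, 10480 and 11920 FPKM in KO Ctrl libraries. The log2 difference was -7.71 ± 0.32 (SE; adjusted p = 1.31e-10). Its neighbour Ppbp (ENSMUSG00000029372, 90768518 to 90770063), the pro-platelet basic protein, had 1.18, 0.899 and 1.07 FPKM in KO Reserve against 1316, 337 and 592 FPKM in KO Ctrl, a difference of -8.29 ± 0.52 (adjusted p = 1.12e-08). Every KO Reserve library lay far below every KO Ctrl library for both chemokines, and KO Ctrl replicate 1 held the highest value of each.

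The receptors of the platelet surface moved the same way. F2r, a thrombin receptor, stood at 4.94, 4.06 and 3.51 FPKM in KO Reserve against 270, 192 and 190 FPKM in KO Ctrl (-5.39 ± 0.17, adjusted p = 4.01e-14). F2rl2, another receptor of that family, differed by -6.04, and Selp, the adhesion molecule P-selectin, by -6.06. Gp9, a chain of the von Willebrand factor receptor, had 8.37, 9.18 and 9.98 FPKM in KO Reserve against 160, 167 and 187 FPKM in KO Ctrl (-4.08 ± 0.16, adjusted p = 2.94e-13). For these 4 genes no KO Reserve library came near a KO Ctrl library. F2rl2 was below 1 FPKM in every KO Reserve library, so the filter fixed its direction and separation. Itga2b, the fibrinogen receptor chain CD41, and Vwf itself, both named here after their values were seen, differed by -4.51 and -3.43. Cavin2, a caveolar coat protein abundant in platelets, differed by -4.90. The 3 listed genes below the filter were Gp6, Tubb1 and Mpig6b. Gp6, the collagen receptor, was listed at 0 in all KO Reserve libraries with a mean of 5.06 FPKM in KO Ctrl, but in fewer than 3 libraries at 1 FPKM or more. Tubb1, a tubulin of mature platelets, averaged 0 FPKM in KO Reserve and 0.167 FPKM in KO Ctrl.

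Erythroid genes rose together. Of 29 listed genes of the red cell membrane and its regulators 26 were tested, 22 of them higher (84.6% against 26.1%) and 3 lower, with a median difference of 3.12. All 22 called higher had every KO Reserve library above every KO Ctrl library. Of the tested members 5 were listed at 0 in all KO Ctrl libraries. Others, among them Ermap, Rhd, Mt2 and Klf1, were above 0 but below 1 FPKM in every KO Ctrl library. For these and for the 5 the filter fixed the direction and the separation.

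Car1 (ENSMUSG00000027556, chromosome 3, 14766216 to 14808368), a carbonic anhydrase of early red cell precursors, had 5633, 5302 and 4299 FPKM in KO Reserve and was listed at 0 in all 3 KO Ctrl libraries (adjusted p = 1.16e-20). Cldn13, a claudin of erythroid cells, had 282, 266 and 256 FPKM in KO Reserve and was likewise at 0 in KO Ctrl. Ermap, an erythroblast membrane protein, had 150, 160 and 171 FPKM in KO Reserve against 0, 0.058 and 0.005 FPKM in KO Ctrl. Both groups were tight, and the KO Ctrl values lay at or below the level of a few fragments. Rhd, the blood group antigen RhD, had 192, 161 and 155 FPKM in KO Reserve against 0.061, 0.018 and 0.016 FPKM in KO Ctrl (7.36 ± 0.16, adjusted p = 2.05e-16). Klf1, the erythroid Kruppel-like factor, is named here after its values were seen, and had 302, 267 and 254 FPKM in KO Reserve against 0.633, 0.493 and 0.195 FPKM in KO Ctrl (7.59 ± 0.19, adjusted p = 1.84e-15). Gata1, the factor that both the erythroid and the platelet lineage need and also named after the fact, was present in all libraries and differed far less (0.75 ± 0.17, adjusted p = 0.000719), with 122, 116 and 94.3 FPKM in KO Reserve against 61.1, 71.5 and 63.0 FPKM in KO Ctrl.

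The 3 listed erythroid genes that fell were Nfe2, Gfi1b and Epb41. Nfe2, a transcription factor needed for platelet release, had 84.4, 72.7 and 64.6 FPKM in KO Reserve against 318, 313 and 320 FPKM in KO Ctrl (-2.09 ± 0.09, adjusted p = 7.26e-13). Gfi1b, a repressor shared by erythroid and megakaryocytic cells, differed by -0.71, with overlapping groups. Tal1 was not called, with a difference of -0.07.

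Haemoglobin genes were higher. All 5 tested globin genes of 9 listed were called higher, with a median difference of 5.05. Hba-a1, Hba-a2 and Hbq1b were below 1 FPKM in every KO Ctrl library and passed the filter only through KO Reserve, which fixed their direction. The 9 genes summed to 467.8 to 1128 FPKM in KO Reserve against 28.3 to 35.0 FPKM in KO Ctrl. Hba-a1 had 163, 180 and 321 FPKM in KO Reserve and was at 0 in KO Ctrl. Hbb-bs had 109, 139 and 331 FPKM in KO Reserve against 5.21, 4.27 and 3.32 FPKM in KO Ctrl (5.05 ± 0.65, adjusted p = 1.34e-05). KO Reserve replicate 3 was the highest of its group for both. Hba-a1 and Hba-a2, and Hbb-bs and Hbb-bt, are nearly identical copies, so the split of reads within each pair is uncertain. Among heme synthesis enzymes 10 of 11 tested were higher and none lower, with a median of 1.49. Alas2, the erythroid first step of the pathway, was called higher but averaged 1.51 FPKM in KO Reserve against 0.230 FPKM in KO Ctrl, and the anion exchanger Slc4a1 of the mature red cell membrane stayed at 0.225 FPKM in KO Reserve and 0 FPKM in KO Ctrl.

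**Figure D2:**
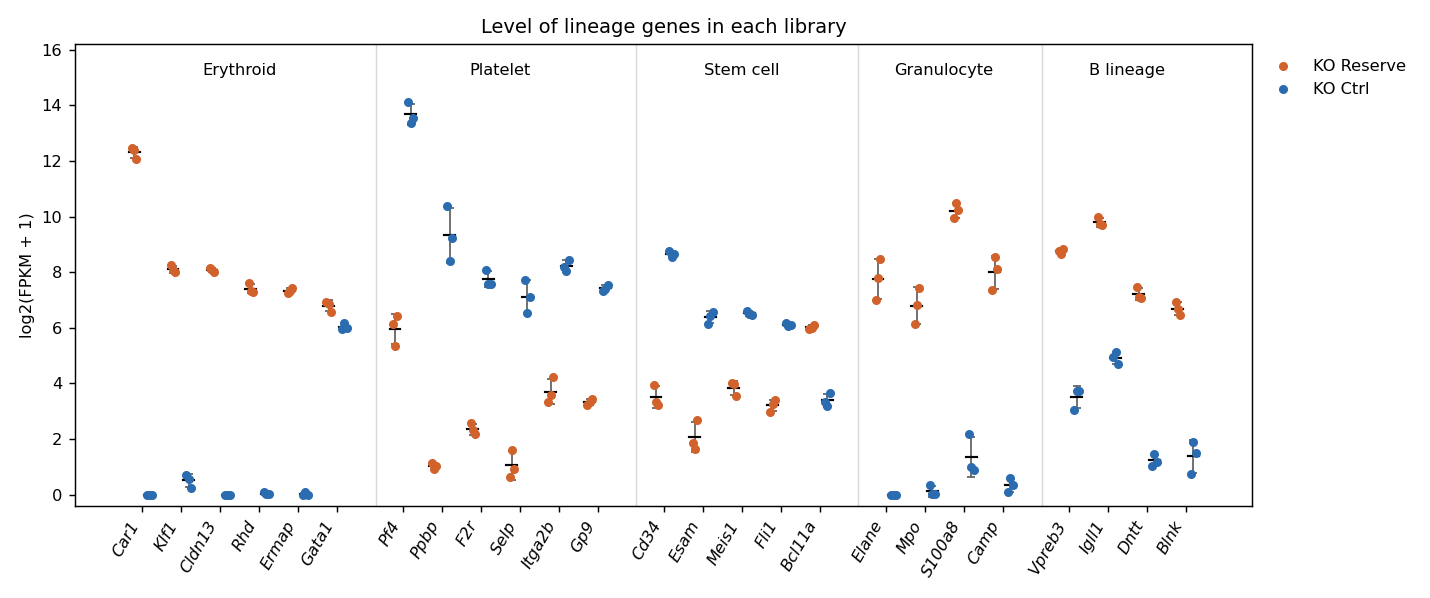
Level of 25 genes in each library (vertical axis, log2(FPKM + 1)), with KO Reserve in orange on the left of each pair and KO Ctrl in blue on the right; points are libraries, black lines group means and bars 1 SD (n = 3). The 2 groups are separated for every gene shown, KO Reserve above for the erythroid, granulocyte and B lineage genes and for Bcl11a, and below for the platelet genes and the other stem cell genes. Car1, Klf1, Cldn13, Rhd, Ermap, Elane, Mpo and Camp were below 1 FPKM in every KO Ctrl library, so the filter fixed their separation.

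The promoters of 5 genes from the platelet and erythroid lists are printed because most members of these lists were called, in opposite directions. Each window runs from 250 bases before the annotated gene start to 50 bases after it, in RefSeq on GRCm38.p6, printed 5′ to 3′ on the gene's strand. Capitals mark AGATAA, the core recognised by GATA factors, and AGGAAG, a core recognised by ETS factors such as Fli1, each on either strand. The letters of the other strand read TTATCT and CTTCCT. Rhd and Ermap stand for the erythroid list, Pf4, its neighbour Ppbp and Gp9 for the platelet list.
Rhd, chr4:134864286-134864585, plus strand: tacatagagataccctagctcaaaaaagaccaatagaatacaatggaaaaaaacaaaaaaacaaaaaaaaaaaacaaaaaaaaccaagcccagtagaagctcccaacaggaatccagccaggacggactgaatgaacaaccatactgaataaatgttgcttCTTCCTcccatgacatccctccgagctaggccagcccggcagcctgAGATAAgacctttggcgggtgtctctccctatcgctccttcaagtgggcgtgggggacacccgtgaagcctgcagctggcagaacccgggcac
Ermap, chr4:119189946-119190245, minus strand: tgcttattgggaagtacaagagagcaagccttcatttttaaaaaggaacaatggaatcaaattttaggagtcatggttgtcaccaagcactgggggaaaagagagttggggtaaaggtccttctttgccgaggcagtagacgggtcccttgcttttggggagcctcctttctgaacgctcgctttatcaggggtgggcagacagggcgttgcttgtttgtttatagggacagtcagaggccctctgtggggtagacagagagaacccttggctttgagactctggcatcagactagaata
Pf4, chr5:90772185-90772484, plus strand: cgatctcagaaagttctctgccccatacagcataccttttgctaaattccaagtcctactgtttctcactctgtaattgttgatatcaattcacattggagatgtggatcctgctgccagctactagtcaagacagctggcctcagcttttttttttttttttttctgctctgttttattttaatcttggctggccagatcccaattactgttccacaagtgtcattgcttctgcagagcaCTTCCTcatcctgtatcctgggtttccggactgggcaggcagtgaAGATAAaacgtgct
Ppbp, chr5:90768268-90768567, plus strand: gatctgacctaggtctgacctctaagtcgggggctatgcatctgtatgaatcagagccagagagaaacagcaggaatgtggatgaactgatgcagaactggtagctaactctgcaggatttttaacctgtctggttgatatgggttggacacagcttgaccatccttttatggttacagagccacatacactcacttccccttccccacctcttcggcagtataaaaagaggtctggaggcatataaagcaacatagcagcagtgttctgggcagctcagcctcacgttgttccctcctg
Gp9, chr6:87777820-87778119, plus strand: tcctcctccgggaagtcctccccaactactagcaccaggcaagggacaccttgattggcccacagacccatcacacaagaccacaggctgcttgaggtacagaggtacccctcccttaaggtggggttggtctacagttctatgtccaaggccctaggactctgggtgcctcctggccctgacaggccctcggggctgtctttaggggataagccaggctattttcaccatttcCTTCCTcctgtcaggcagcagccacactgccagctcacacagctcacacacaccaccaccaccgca

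The Rhd and Pf4 windows hold 1 match to each motif, Gp9 holds 1 match to AGGAAG, and Ermap and Ppbp hold none. AGATAA was found in 6 of the 24 windows of tested erythroid genes, 4 of the 15 windows of tested platelet genes (26.7%) and 11.2% of all 32851 windows. AGGAAG was found in 20.8% of the erythroid, 66.7% of the platelet and 35.4% of all windows. Some genes have more than 1 window, and the 24 erythroid windows belong to 19 genes. A match is a run of letters and says nothing of binding in these cells.

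Genes that mark LT-HSC were mostly lower in KO Reserve. Of 21 tested transcription factors of LT-HSC 17 were lower (81.0% against 43.4%) and 1 was higher, with a median of -1.61. Of 27 tested surface and signalling genes 22 were lower (81.5%) and 5 higher, with a median of -1.86. Quiescence genes lay nearer the background, 11 of 21 lower (52.4% against 43.4%) and 7 higher (33.3% against 26.1%).

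Meis1, a homeodomain partner of Hox proteins, had 15.2, 14.7 and 10.7 FPKM in KO Reserve against 97.2, 89.7 and 86.1 FPKM in KO Ctrl (-2.68 ± 0.11, adjusted p = 4.44e-13). Fli1, an ETS factor of stem cells and megakaryocytes, had 6.87, 8.57 and 9.50 FPKM in KO Reserve against 70.5, 65.5 and 66.9 FPKM in KO Ctrl (-2.89 ± 0.12, adjusted p = 1.04e-12). Gata2, which stem cells need to expand, had 6.53, 9.16 and 10.3 FPKM in KO Reserve against 49.5, 76.9 and 73.7 FPKM in KO Ctrl (-2.80 ± 0.18). None of the 3 overlapped between groups. Etv6 differed by -2.05. Bcl11a, a factor of early lymphoid progenitors, was the listed factor that rose, with 60.7, 63.1 and 67.5 FPKM in KO Reserve against 9.15, 8.02 and 11.6 FPKM in KO Ctrl (2.62 ± 0.15, adjusted p = 9.27e-11). Tal1, Erg and Prdm16 were not called.

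Esam, an adhesion molecule used to purify stem cells, had 2.64, 2.16 and 5.42 FPKM in KO Reserve against 70.0, 85.0 and 94.4 FPKM in KO Ctrl (-4.31 ± 0.19). Itga6 differed by -3.74 and Trpc6 by -4.21. The separation was complete for all 3. The 5 surface and signalling genes that rose were Apoe (2.88), Mllt3 (2.09), Cxcr4 (1.38), Sult1a1 (1.14) and Ly6e (0.82).

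Among the genes behind the sort gate the largest difference was in Cd34, which had 14.6, 9.09 and 8.30 FPKM in KO Reserve against 437, 371 and 399 FPKM in KO Ctrl (-5.15 ± 0.13, adjusted p = 2.3e-15). The KO Ctrl libraries thus held abundant Cd34 transcript under a gate described as CD34-negative at the surface. Ly6a, which encodes Sca-1, had 20.2, 20.1 and 25.3 FPKM in KO Reserve against 163, 201 and 190 FPKM in KO Ctrl (-3.02 ± 0.20). Flt3, which encodes Flk2, was higher by 1.07 with 3.83, 3.99 and 3.98 FPKM in KO Reserve against 0.846, 1.87 and 1.46 FPKM in KO Ctrl. Kit did not pass the test (0.02 ± 0.18), at 28.3, 30.6 and 29.6 FPKM in KO Reserve against 22.6, 33.6 and 31.9 FPKM in KO Ctrl. Itga2, which encodes CD49b, was below the filter, at 0.011, 0 and 0 FPKM in KO Reserve and 0.03, 0.006 and 0.027 FPKM in KO Ctrl, so the integrin that names the gate could not be compared.

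Transcripts of multipotent progenitors went both ways, 9 of 15 tested members higher and 4 lower. Dntt, the terminal transferase of lymphoid progenitors, had 176, 138 and 133 FPKM in KO Reserve against 1.05, 1.77 and 1.29 FPKM in KO Ctrl (5.98 ± 0.24, adjusted p = 5.95e-13). Plac8 had 380, 397 and 407 FPKM in KO Reserve against 9.44, 9.94 and 12.2 FPKM in KO Ctrl, and Cd48, which LT-HSC lack, had 132, 118 and 92.0 FPKM in KO Reserve against 13.7, 11.6 and 8.30 FPKM in KO Ctrl. The 4 members that fell were Cd34, Emb (-1.67), Cd27 (-1.27) and Ccr9 (-0.88).

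Granulocyte genes were higher. Of 10 tested primary granule genes 8 rose and 2 fell (median 2.32), of 12 secondary and tertiary granule genes 9 rose and 2 fell (median 3.69), and of 13 genes of mature neutrophils 10 rose and 1 fell (median 1.78). Elane, neutrophil elastase, had 128, 218 and 356 FPKM in KO Reserve and was at 0 in KO Ctrl. Mpo, myeloperoxidase, had 68.8, 111 and 174 FPKM in KO Reserve against 0.273, 0.011 and 0.010 FPKM in KO Ctrl (6.67 ± 0.28, adjusted p = 1.96e-12). The gene shares its locus with an antisense model, and unstranded reads do not separate the pair. S100a8, a subunit of calprotectin, had 976, 1416 and 1200 FPKM in KO Reserve against 3.56, 0.997 and 0.843 FPKM in KO Ctrl (8.85 ± 0.39), and S100a9, its partner, differed by 8.0. Camp, the cathelicidin of secondary granules, had 162, 369 and 274 FPKM in KO Reserve against 0.072, 0.508 and 0.273 FPKM in KO Ctrl (7.65 ± 0.30). All of these separated the groups. Elane, Mpo and Camp were below 1 FPKM in every KO Ctrl library, so the filter fixed their direction and separation. KO Reserve libraries were unequal among themselves: replicate 1 was lowest for Elane, Mpo, S100a8 and Camp. Against the direction of most listed genes, Il1b, an inflammatory cytokine, had 1.98, 0.845 and 0.337 FPKM in KO Reserve against 115, 47.9 and 49.1 FPKM in KO Ctrl (-5.08 ± 0.49), and Lyz2, lysozyme, was not called (-0.23).

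B lineage genes rose as well, 16 of 21 tested members (76.2%) with none lower and a median of 2.94. The higher members include the surrogate light chain and its signalling partners. Vpreb3 had 433, 402 and 454 FPKM in KO Reserve against 7.24, 12.4 and 12.1 FPKM in KO Ctrl (5.25 ± 0.21, adjusted p = 4.58e-13). Igll1, lambda 5, named after its values were seen, had 1010, 841 and 829 FPKM in KO Reserve against 30.1, 33.9 and 24.7 FPKM in KO Ctrl. Blnk, an adaptor of the B cell receptor, differed by 5.31, Cd79b by 2.94 and the transcription factor Ebf1, also named after the fact, by 3.41. Igkc, the kappa constant region, was variable, at 784, 1081 and 334 FPKM in KO Reserve against 0.122, 1.0 and 1.25 FPKM in KO Ctrl (8.58 ± 1.28). Jchain, the joining chain of plasma cells and likewise named after the fact, spread from 5.94 FPKM in KO Reserve replicate 1 to 161 and 83.1 FPKM in the other KO Reserve libraries, and was at 0 in KO Ctrl. The filter fixed the direction of Jchain. Its call (adjusted p = 0.0209) was lost without KO Reserve replicate 2 (adjusted p = 0.0791) or replicate 3 (adjusted p = 0.0624).

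Of 27 listed genes of T and natural killer cells 10 were tested and 8 were higher, none lower, with a median of 2.30. Tcrg-C1, a constant region of the T cell receptor gamma chain, had 44.3, 75.0 and 35.4 FPKM in KO Reserve against 0.724, 0.423 and 1.02 FPKM in KO Ctrl (4.87 ± 0.21). Trbc1, a constant region of the beta chain, had 92.6, 104 and 91.6 FPKM in KO Reserve against 15.0, 12.7 and 5.31 FPKM in KO Ctrl (3.12 ± 0.36). The T cell markers Cd3e, Cd4 and Cd8a were at or near 0. Cd3e averaged 0.0763 FPKM in KO Reserve and 0 FPKM in KO Ctrl, Cd4 averaged 0.0973 FPKM in KO Reserve and 0 FPKM in KO Ctrl, and Cd8a averaged 0.045 FPKM in KO Reserve and 0.00833 FPKM in KO Ctrl.

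Of 11 tested monocyte genes 4 were higher and 4 lower (36.4% each, against 26.1% and 43.4%), or 5 and 3 with quantile normalization. Ly6c2 had 31.1, 42.3 and 55.1 FPKM in KO Reserve against 0.016, 0.009 and 0.285 FPKM in KO Ctrl, while Csf1r, the receptor that defines the lineage, was below the filter at a mean of 0.176 FPKM in KO Reserve and 0.131 FPKM in KO Ctrl. The 3 complement genes C1qa, C1qb and C1qc of macrophages were called higher at 1.08 to 6.62 FPKM in KO Reserve and were at 0 in KO Ctrl. The filter fixed their direction, as it did for Ly6c2. Of 9 tested MHC class II genes 7 were higher (77.8% against 26.1%), H2-Ab1 with 82.9, 64.7 and 62.8 FPKM in KO Reserve against 11, 13.7 and 17.0 FPKM in KO Ctrl. Of 5 tested mast cell, basophil and eosinophil genes 3 were higher, among them Cpa3, a mast cell protease, at 44.1, 38.3 and 25.8 FPKM in KO Reserve against 0.902, 0 and 0.795 FPKM in KO Ctrl. Stromal and endothelial genes were lower, 5 of 5 tested of 21 listed (100% against 43.4%). Among these 5, Emcn and Kdr were below 1 FPKM in every KO Reserve library, so the filter fixed their direction. The collagen gene Col3a1 was at 0 in both groups and Col1a1 averaged 0 FPKM in KO Reserve and 0.004 FPKM in KO Ctrl, and the tested members included Pecam1 (-1.92) and Emcn (-2.35), which stem cells also express. The part that other cell types take in these differences was not tested.

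**Figure D3:**
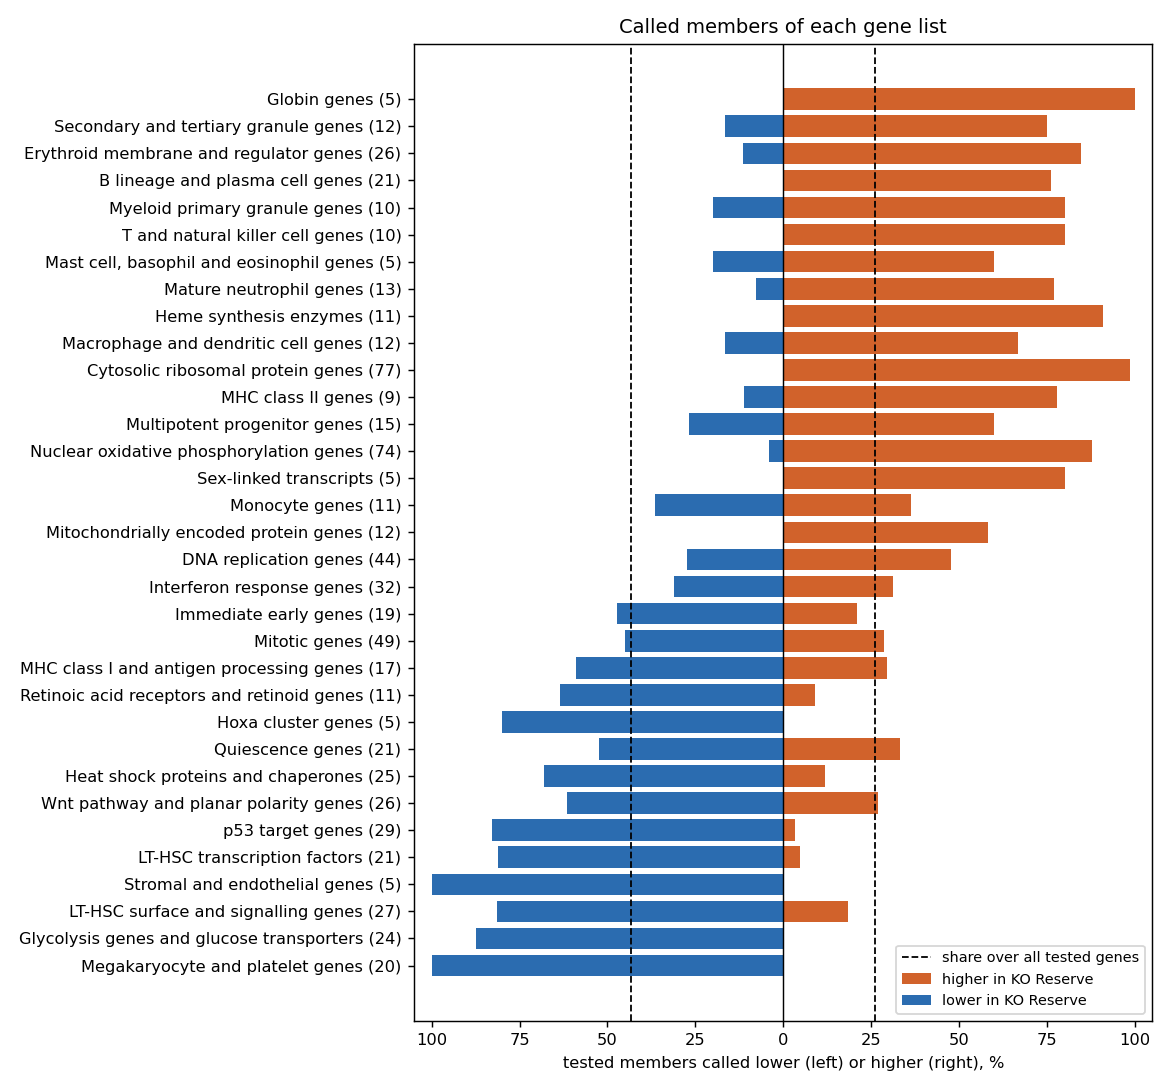
Share of the tested members of each gene list called higher (orange, right) or lower (blue, left) in KO Reserve than in KO Ctrl, in % (horizontal axis), for lists with at least 5 tested members, whose number stands in brackets; dashed lines mark the shares over all 12713 tested genes, 26.1% higher and 43.4% lower. Lists run from globin genes (100% higher) at the top to platelet genes (100% lower) at the bottom.

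Energy metabolism split between its branches. Of 24 tested genes of glycolysis and glucose transport 21 were lower (87.5% against 43.4%) and none higher, with a median of -1.92. Pkm, pyruvate kinase, had 28.3, 22.6 and 22.3 FPKM in KO Reserve against 533, 574 and 594 FPKM in KO Ctrl (-4.49 ± 0.17, adjusted p = 3.67e-13). Slc2a1, the glucose transporter GLUT1, had 0.788, 0.605 and 0.519 FPKM in KO Reserve against 33.8, 29.7 and 32.2 FPKM in KO Ctrl (-4.33 ± 0.12). Aldoa differed by -2.15, Pgam1 by -2.33 and Ldha, lactate dehydrogenase A and named after its values were seen, by -1.55. The groups did not overlap for any of these. Slc2a1 was below 1 FPKM in every KO Reserve library, so the filter fixed its direction and separation.

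Nuclear genes of oxidative phosphorylation were higher, 65 of 74 tested (87.8% against 26.1%) with 3 lower and a median of 0.89. Cytosolic ribosomal protein genes were higher in 76 of 77 tested (98.7%), with a median of 1.32. Uqcr11, a complex III subunit, had 2386, 2960 and 3692 FPKM in KO Reserve against 727, 847 and 849 FPKM in KO Ctrl, and Rpl13a had 1861, 1999 and 2108 FPKM in KO Reserve against 246, 285 and 288 FPKM in KO Ctrl (2.86 ± 0.11, adjusted p = 2.64e-13). Sdha, a subunit of complex II, ran against this with 190, 177 and 173 FPKM in KO Reserve against 336, 373 and 385 FPKM in KO Ctrl (-1.01 ± 0.14).

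Both lists hold short transcripts, and the comparison followed length. The median difference was 0.87 over tested genes under 500 bases, 0.71 for 500 to 1000 bases, 0.03 for 1000 to 2000 bases, -0.46 for 2000 to 4000 bases and -0.37 above 4000 bases. Of the tested members 35 of 77 ribosomal and 33 of 74 oxidative phosphorylation genes were under 1000 bases. With the length trend removed the medians were 1.0 for ribosomal and 0.60 for oxidative phosphorylation genes, and with quantile normalization they were 0.72 and 0.41. The part of length in these differences beyond those values was not tested. Of 12 tested mitochondrially encoded genes 7 were higher and none lower, but with quantile normalization 5 were higher and 2 lower.

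Mitotic genes lay near the background, with 14 of 49 tested higher (28.6%) and 22 lower (44.9%). With quantile normalization 20 were higher and 15 lower, and the list's median of -0.24 became 0.04. Ckap2l had 28.7, 23.8 and 24.4 FPKM in KO Reserve against 286, 181 and 201 FPKM in KO Ctrl (-3.05 ± 0.18), while Cks2 (1.43) and Top2a (0.95) were higher. Of 44 tested replication genes 21 were higher (47.7%) and 12 lower, with a median of 0.26. Pola1, the catalytic subunit of DNA polymerase alpha, had 46.6, 51.7 and 53.5 FPKM in KO Reserve against 15.9, 19.2 and 16.4 FPKM in KO Ctrl (1.51 ± 0.10). Xist and Y-linked transcripts were both present in all 6 libraries, and the 4 Y-linked transcripts listed were higher in KO Reserve, Eif2s3y by 1.13, with Xist not called (0.49 ± 0.24) but called higher with quantile normalization (0.87). In the wild type Xist had 0.802, 0.015 and 0.186 FPKM in WT Reserve against 2.46, 2.76 and 2.47 FPKM in WT (-1.46 ± 0.24), and the difference between the contrasts was 1.95 (adjusted p = 0.000393).

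Targets of p53 were lower, 24 of 29 tested (82.8%), with a median of -1.26. Bbc3, the apoptosis activator PUMA, had 0.907, 0.946 and 0.905 FPKM in KO Reserve against 12.9, 13.1 and 14.9 FPKM in KO Ctrl (-2.93 ± 0.21). With every KO Reserve library below 1 FPKM, the filter fixed the direction of Bbc3. Btg2, an antiproliferative gene, differed by -2.35 and Ei24 by -2.66. Rps27l was the member called higher (0.56), and its sign turned with quantile normalization (-0.14). Heat shock proteins and chaperones were lower in 17 of 25 tested, Hspa5, the chaperone BiP, with 161, 154 and 129 FPKM in KO Reserve against 480, 462 and 525 FPKM in KO Ctrl. Xbp1, its regulator in the unfolded protein response, differed by -2.25. Of 32 tested interferon response genes 10 were higher and 10 lower (31.2% each), but 14 were higher and 7 lower with quantile normalization. Immediate early genes lay near the background, 4 of 19 higher (21.1% against 26.1%) and 9 lower (47.4% against 43.4%), or 6 and 5 with quantile normalization. Fos had 13.8, 10.3 and 9.44 FPKM in KO Reserve against 0.358, 0.252 and 0.488 FPKM in KO Ctrl, below 1 FPKM in each, so the filter fixed its direction. Egr1 had 4.01, 5.03 and 4.08 FPKM in KO Reserve against 23.8, 41.6 and 37.5 FPKM in KO Ctrl.

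Hox and retinoid genes were mostly low in both groups. Of 12 listed Hoxb transcripts 2 were tested, and both were lower, where the background was 43.4%. Hoxb2 had 0.674, 1.45 and 1.43 FPKM in KO Reserve against 3.27, 5.05 and 4.37 FPKM in KO Ctrl (-1.27 ± 0.19). The antisense transcript Hoxb5os had 0.439, 0.155 and 0.165 FPKM in KO Reserve against 2.46, 2.03 and 2.59 FPKM in KO Ctrl (-1.43 ± 0.20). Hoxb5os was below 1 FPKM in every KO Reserve library, so the filter fixed its direction. Of 5 tested Hoxa transcripts 4 were lower, Hoxa9 at 6.54, 5.40 and 4.35 FPKM in KO Reserve against 13.8, 21.1 and 21.8 FPKM in KO Ctrl (-1.61 ± 0.20). Hoxa7 (-0.63) overlapped between groups. Of 11 tested retinoid genes 7 were lower (63.6% against 43.4%), among them the receptor Rarg (-1.66) and the retinoic acid target Tgm2 (-1.10). The retinaldehyde dehydrogenase Aldh1a3 was higher (1.52). Of 26 tested Wnt pathway genes 16 were lower (61.5% against 43.4%) and 7 higher (26.9% against 26.1%). Wnt5a itself was below the filter. The co-receptor Lrp6 had 2.67, 2.74 and 2.33 FPKM in KO Reserve against 15.9, 24.0 and 23.5 FPKM in KO Ctrl (-2.61 ± 0.15), Ctnnb1, beta-catenin, differed by -1.19, and the nuclear factor Lef1 was higher by 2.54.

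Several of the largest differences were in very short gene models, whose FPKM multiply few fragments by a large factor. Mir144 (66 bases, chromosome 11, 78073005 to 78073070), a microRNA gene active in red cell precursors, had 254, 1430 and 382 FPKM in KO Reserve and was at 0 in KO Ctrl. Mir130c (82 bases, chromosome 9, 53400805 to 53400886) showed the reverse, listed at 0 in KO Reserve, with 180, 210 and 743 FPKM in KO Ctrl. The library kit is not made for mature microRNAs, so these values do not measure the mature strands. Their sequences are printed to identify the genes, from RefSeq on GRCm38.p6, with the seed (bases 2 to 8) in capitals. No seed is shared.
miR-144-3p: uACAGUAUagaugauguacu
miR-144-5p: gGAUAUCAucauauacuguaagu
miR-130c: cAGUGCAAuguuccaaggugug

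The comparison of reserve with other LT-HSC was repeated in the wild type, with no library in common. The same genes were tested, chosen by their level in the knockout libraries alone. Genes expressed only in the wild-type groups were thus left out, and the shares below do not treat the genotypes alike. There 7799 of 12713 genes were called (61.3%), 3971 higher (31.2%) and 3828 lower (30.1%) in WT Reserve than in WT. Of genes called higher in KO Reserve 73.0% were also called higher in WT Reserve, which is 61.1% of those called there. Of genes called lower in KO Reserve 61.4% were called lower in WT Reserve, which is 88.6% of those called there. The difference between the 2 contrasts, knockout minus wild type, was itself called for 4276 genes (33.6%), 1167 (9.18%) with a more positive and 3109 (24.5%) with a more negative reserve difference in the knockout. Quantile normalization gave 2107 more positive and 1913 more negative.

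**Figure D4:**
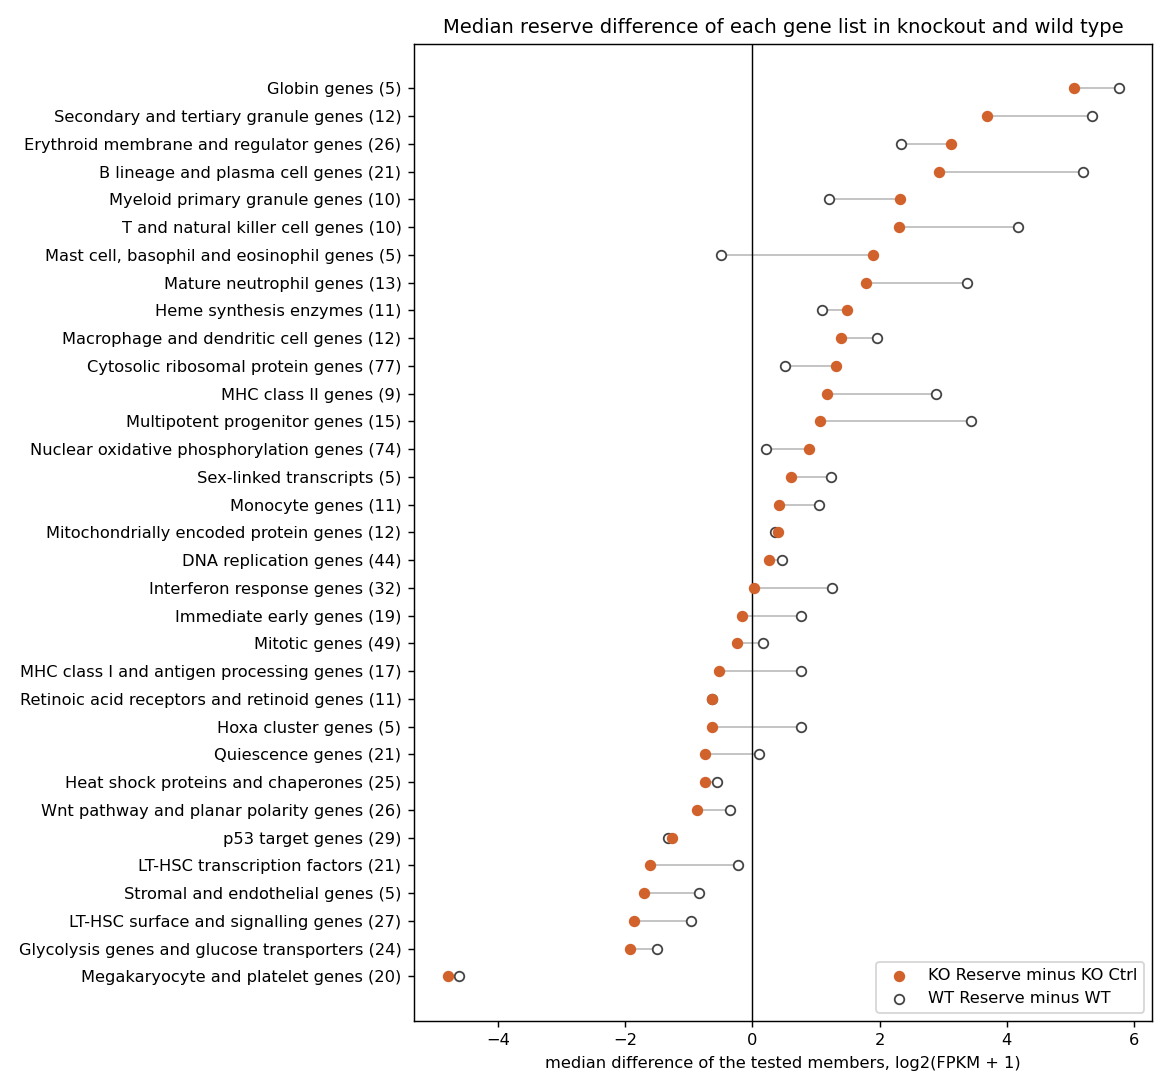
Median difference of the tested members of each gene list (horizontal axis, log2(FPKM + 1)), as KO Reserve minus KO Ctrl (filled) and as WT Reserve minus WT (open); the number of tested members stands in brackets. The platelet medians nearly coincide, at -4.79 in the knockout and -4.61 in the wild type, while multipotent progenitor genes (1.07 in the knockout, 3.44 in the wild type) and Hoxa genes (-0.63 in the knockout, 0.76 in the wild type) lie apart.

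The platelet genes were lower in reserve cells of both genotypes, 20 of 20 in each. For 4 of the 20 the difference was more negative in the knockout, where the background was 24.5%. With quantile normalization it was 3 of the 20, against 1913 of all 12713 genes. Neither was a larger share than over all tested genes. Pf4 differed by -7.71 in the knockout and -7.67 in the wild type (adjusted p of the difference = 0.963). Of the erythroid list 16 of 26 members had a more positive difference in the knockout, where the background was 9.18%, and 1 a more negative one. With quantile normalization these counts were 18 and 1. Klf1 differed by 7.59 in the knockout and 6.84 in the wild type (adjusted p of the difference = 0.0455). Ribosomal protein genes had a more positive difference in the knockout for 73 of 77 members (background 9.18%). With quantile normalization it was 53, against 2107 of all 12713 genes. The trend with length also differed between the genotypes. Genes under 500 bases had a median of 0.87 in the knockout and 0.56 in the wild type, those of 2000 to 4000 bases -0.46 and -0.07. The part of length in the ribosomal counts was not tested.

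Many stem cell genes differed between the genotypes, but not they alone. A more negative reserve difference in the knockout was also called for 10 of 15 multipotent progenitor genes and 9 of 12 secondary and tertiary granule genes. The same held for 7 of 10 genes of T and natural killer cells. Erythroid and ribosomal protein genes went mostly the other way, as given above. Of 21 LT-HSC transcription factors 15 had a more negative reserve difference in the knockout (71.4% against 24.5%), and 13 with quantile normalization. Of 27 surface and signalling genes 21 had a more negative difference, and 17 with quantile normalization. The lists' medians were -1.61 and -1.86 in the knockout and -0.22 and -0.97 in the wild type. Procr, Hlf, Mecom, Ifitm1 and Cd27 are named here after their values were seen. Procr, a protein C receptor by which stem cells are purified, had 1.42, 1.65 and 1.19 FPKM in KO Reserve against 3.38, 7.55 and 7.92 FPKM in KO Ctrl, and 21.1, 15.7 and 15.6 FPKM in WT Reserve against 4.02, 5.44 and 5.17 FPKM in WT. It was thus lower in reserve cells of the knockout (-1.53 ± 0.21) and higher in reserve cells of the wild type (1.65 ± 0.21).

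Hlf, a transcription factor largely restricted to stem cells, had 1.35, 2.11 and 2.03 FPKM in KO Reserve against 7.37, 7.59 and 8.53 FPKM in KO Ctrl, and 14, 12.6 and 9.71 FPKM in WT Reserve against 4.92, 4.95 and 4.55 FPKM in WT. Ly6a was lower in KO Reserve, as given above, and had 169, 192 and 95.5 FPKM in WT Reserve against 91.0, 85.8 and 95.7 FPKM in WT (0.68 ± 0.20, adjusted p = 0.00685), with WT Reserve replicate 3 inside the range of WT. Hoxa9 had 30.5, 26.6 and 21.4 FPKM in WT Reserve against 11, 10.2 and 8.12 FPKM in WT (1.33 ± 0.20), opposite to its difference of -1.61 in the knockout. Ndn, a growth suppressor linked to stem cell quiescence, differed by -2.38 in the knockout and 0.66 in the wild type, and Mecom by -2.17 and 0.52. Across all genes 429 were called in opposite directions with a called difference, 387 of them lower in KO Reserve and higher in WT Reserve and 42 the reverse. With quantile normalization there were 335 such genes, 210 and 125 in these directions, and 212 were shared.

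**Figure D5:**
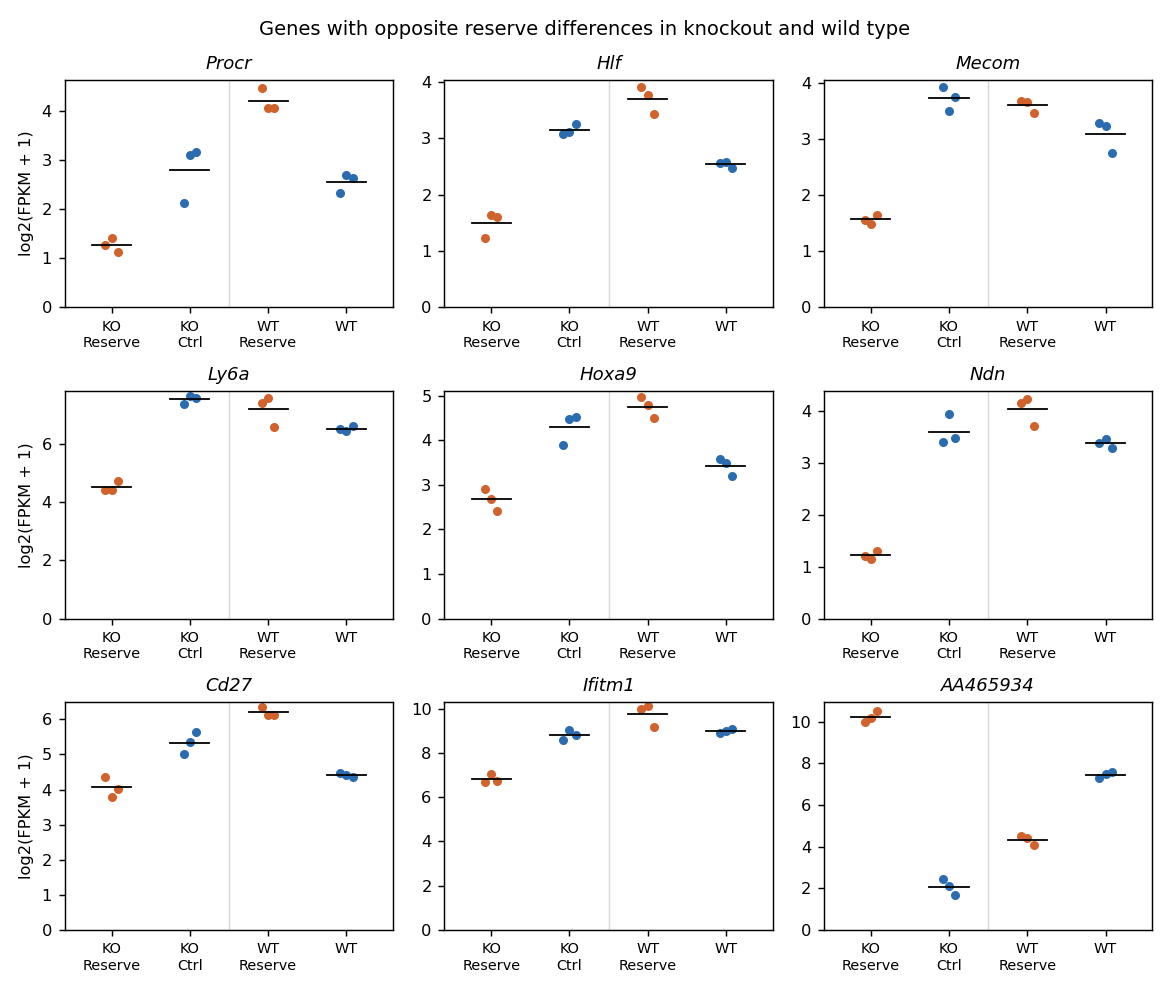
Level of 9 genes (vertical axes, log2(FPKM + 1)) in KO Reserve, KO Ctrl, WT Reserve and WT libraries, from left to right; points are libraries and lines are group means (n = 3). For the first 8 genes KO Reserve lies below KO Ctrl while the mean of WT Reserve lies above that of WT, and for AA465934 both directions are the reverse.

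AA465934 (ENSMUSG00000093483, chromosome 11, 83291699 to 83294632), a non-coding transcript of 471 bases, had the largest positive difference between the contrasts among the named genes. It had 1028, 1142 and 1454 FPKM in KO Reserve against 4.44, 3.25 and 2.18 FPKM in KO Ctrl, and 21.6, 20.6 and 15.7 FPKM in WT Reserve against 157, 178 and 188 FPKM in WT. None of the 4 groups overlapped another. For Mpo, WT Reserve had 186, 112 and 95.1 FPKM against 53.7, 60.9 and 65.4 FPKM in WT (1.06 ± 0.28). KO Ctrl, at no more than 0.273 FPKM, was the group far from the other 3. Ctsg, cathepsin G and another primary granule protease, had 41.7, 94.4 and 127 FPKM in KO Reserve and was at 0 in KO Ctrl, against 107, 112 and 25.3 FPKM in WT Reserve and 23.5, 26.4 and 26.8 FPKM in WT.

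Many B lineage, antigen-presentation and interferon response genes had a more negative reserve difference in the knockout than in the wild type, against a background of 24.5%. Of 21 B lineage genes 12 had a more negative difference than in the wild type and none a more positive one, or 10 and 1 with quantile normalization, with medians of 2.94 in the knockout and 5.20 in the wild type. All 9 tested MHC class II genes had a more negative difference, and 8 with quantile normalization. H2-DMb1 changed direction, with -0.82 in the knockout and 0.89 in the wild type. Of 17 MHC class I and antigen processing genes 14 had a more negative difference, and 12 with quantile normalization. Their median was -0.53 in the knockout and 0.77 in the wild type, or -0.14 and 0.79 with quantile normalization. H2-Aa was not called in the knockout (0.61 ± 0.31), at 10.5, 7.55 and 4.74 FPKM in KO Reserve against 3.78, 2.55 and 8.29 FPKM in KO Ctrl, and differed by 4.46 in the wild type. Interferon response genes had a median of 0.02 in the knockout and 1.25 in the wild type, and 25 of 32 had a more negative difference, 19 with quantile normalization.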

How the data were processed

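FPKM per gene and library were computed by the authors with Cufflinks after TopHat2 2.0.10 and CASAVA 1.8.2 on mm10, per the submitters' processing notes; the deposited values are FPKM, and no counts were used. Per the labels' protocol, cells were sorted into lysis buffer and libraries made with the SMARTer ultra low input v3 kit. Depth was inferred from the steps between low FPKM values, over 2903 genes. Symbols were matched to GENCODE M21 on GRCm38, 44022 of 44349 of them. The 16 genes with missing values were left out.

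From these values, limma 3.58.1 in R 4.3.3 fitted 1 mean per group to log2(FPKM + 1) of all 18 libraries, with trend and robust moderation, and a gene counted as called where its p, adjusted by Benjamini and Hochberg within the contrast, was below 0.05. In simulated data 87% of log2 changes of 1 and 99% of log2 changes of 2 were called, with 16 false calls. The simulation changed 200 of 12713 genes, all expressed in KO Ctrl, with independent noise. In the real comparison 69.6% of genes were called and scaling moved the split, so these rates do not describe it. Alternatives were other scalings, filters, pseudocounts, library weights, a minimum change, a replicate block and leaving libraries out.

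The comparison, gene lists and members were chosen with earlier results of these data known. Named genes are those of the sort gate, Hoxb, Wnt5a and sex-linked transcripts, the 12 largest rises and 12 largest falls without overlap, up to 4 genes of smallest p per list with up to 2 that moved against it, and the 8 largest differences each way between the genotypes. Genes named outside this rule, some of them said so beside their values, are Klf1, Gata1, Itga2b, Vwf, Procr, Hlf, Mecom, Cd27, Ifitm1, Igll1, Ebf1, Jchain and Ldha, together with list members named to account for a count or an absence: Alas2, Ccr9, Cd3e, Cd4, Cd8a, Col1a1, Col3a1, Csf1r, Cxcr4, Erg, Gfi1b, Gp6, Hbb-bt, Ly6e, Lyz2, Mpig6b, Prdm16, Slc4a1, Sult1a1, Tal1 and Tubb1. Some members of the lists are not reported here.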

Additional observations from a re-analysis of the deposited data

Results flagged for a closer look

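The reserve difference in the knockout and that in the wild type were compared by limma, and 4276 genes differed between them. The values below are the knockout difference minus the wild-type difference on the log2(FPKM + 1) scale. Of 33 named genes given here, 20 were called in opposite directions in the 2 genotypes, and 17 of these 20 were also opposite with quantile normalization, the exceptions being Ctsh, Hoxa7 and Rps27l.

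Among stem and progenitor genes the difference was -3.70 for Ly6a, -3.17 for Procr, -3.05 for Cd27, -3.04 for Ndn, -2.88 for Emb, -2.81 for Hlf, -2.80 for Ifitm1 and -2.68 for Mecom. The Hoxa genes followed, with -2.94 for Hoxa9, -1.39 for Hoxa7 and -1.23 for Hoxa5.

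Granule genes went both ways, with 5.61 for Mpo, 4.96 for Ctsg and 2.40 for Mcpt8 against -2.51 for Padi4. Genes of antigen presentation and the interferon response were more negative in the knockout, with -3.85 for H2-Aa, -1.71 for H2-DMb1, -1.53 for Igtp and -1.70 for Ifit2. The same held for the protease Ctsh (-3.77) and the filament gene Vim (-1.79), while the p53 target Rps27l had 1.01.

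The largest differences each way were 11.28 for AA465934 and -11.49 for Trgj4. Others were 4.91 for n-TSaga9, 2.13 for Hpn, 2.00 for Mylk3 and 1.99 for Cited4, and -7.44 for Mir130c, -5.82 for Mir763, -5.10 for Snora15, -4.85 for Tnfsf13os and -3.83 for Ighv1-78. Several of these are short gene models: Trgj4 has 61 bases, Mir130c 82, n-TSaga9 107, Mir763 120 and Snora15 131.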

How the results depend on the processing

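Requiring a log2 change of at least 1 left 2297 calls between KO Reserve and KO Ctrl (716 higher, 1581 lower), 1595 between WT Reserve and WT, and 197 for the difference between the genotypes. The other scalings, filters and models kept these 3 counts within 1.5 times. A fit without KO Reserve 1 and KO Ctrl 1, chosen after seeing the data, was run for the knockout comparison and gave 8416 calls. Leaving out 1 library at a time gave 8310 to 8688, 7084 to 7511 and 3551 to 4773 calls. The replicate block gave 8831 calls in place of 8846. Same-numbered KO Reserve and KO Ctrl libraries deviated from their group means with correlations of 0.00327 to 0.00857, within the range of differently numbered ones (-0.0567 to 0.0516). With so few libraries this cannot decide whether equal numbers share an animal or day, which the labels do not say. Quantile normalization shared 7482 calls, 84.6% of those reported and 85.8% of its own.

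Rps27l changed sign, with -0.14 under quantile normalization and -0.05 once the trend with length was taken out, against 0.56 as reported; the cause was not tested. Of 205 genes followed singly, 149 kept direction and call under the alternatives that tested them; 172 were tested with a mean of at least 5 FPKM and 183 among nuclear coding genes, and all 205 under the others. Depth limits what can be said of values under about 0.1 FPKM.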
